A study of Mus musculus with 12 samples.

Results

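The sirtuin family comprises 7 genes, Sirt1 to Sirt7, and all 7 were found by gene symbol among the 21937 genes measured by RNA sequencing of purified mouse brain myelin. Myelin is the multilayered membrane that oligodendrocytes wrap around axons. It was enriched on sucrose density gradients from whole brains of wild-type male c57Bl6/N mice, without any treatment, at the ages P18 (postnatal day 18), P75 (postnatal day 75), 6 months and 24 months. Each age had 3 libraries, 12 in all, and the values are normalized read counts, which are not corrected for transcript length. The labels give an age and a replicate number for each library, and the study describes individual mouse brains for the 6 months libraries, so that p-values measure the spread between libraries that are taken to be separate mice. The fraction is light membrane and not a cell population, and no whole brain library was analysed here.

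Sirtuins are enzymes that use the cofactor NAD+ to remove acetyl and other acyl groups from lysines of proteins, or to transfer ADP-ribose, and their activity is therefore tied to the NAD+ supply of a cell. Sirt1, Sirt6 and Sirt7 act mainly in the nucleus, Sirt3, Sirt4 and Sirt5 in mitochondria, and Sirt2 mainly in the cytoplasm, where it removes acetyl groups from alpha-tubulin. SIRT2 is also an established protein of the non-compact regions of central nervous system myelin.

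The 7 genes share a short coding stretch for a conserved part of the NAD+ binding pocket, shown here because it is what makes them 1 family and because similar sequence could let reads of a member be counted on another. The 42 bases are from the longest coding sequence of each gene in GENCODE vM1, written 5′ to 3′, and capitals mark the bases that differ from Sirt2.
Sirt1: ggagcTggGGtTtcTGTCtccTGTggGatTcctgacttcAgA
Sirt2: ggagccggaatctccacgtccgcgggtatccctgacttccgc
Sirt3: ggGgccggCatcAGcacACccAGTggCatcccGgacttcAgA
Sirt4: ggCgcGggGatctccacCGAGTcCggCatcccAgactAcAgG
Sirt5: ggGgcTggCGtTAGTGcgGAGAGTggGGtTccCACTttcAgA
Sirt6: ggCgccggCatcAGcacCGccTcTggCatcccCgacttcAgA
Sirt7: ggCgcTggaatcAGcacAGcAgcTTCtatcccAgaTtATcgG
Even in this stretch 12 (Sirt6) to 24 (Sirt5) of the 42 bases differed from Sirt2. Over the whole protein-coding transcripts, the longest identical run between any pair of members was 10 to 14 bases over the 21 pairs. The members therefore had no identical stretch longer than 14 bases in common.

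On the genome build NCBIM37 (mm9), Sirt2 lay on chromosome 7, from 29551754 to 29573684 on the plus strand. Sirt3 lay on the minus strand of the same chromosome, from 148049569 to 148068208. Sirt1 (chromosome 10, 62781753 to 62844452), Sirt6 (chromosome 10, 81084530 to 81090542), Sirt4 (chromosome 5, 115928019 to 115934734) and Sirt7 (chromosome 11, 120479686 to 120486554) were on the minus strand, and Sirt5 (chromosome 13, 43460882 to 43490571) was on the plus strand. Exons of neighbouring genes overlapped 9.68% (Psmd13) and 3.89% (Ric8) of the merged exon bases of Sirt3, 2.41% of those of Sirt7 (Mafg), 1.22% of those of Sirt1 (Gm16145) and 1.18% of those of Sirt2 (Nfkbib). Whether the counting used strand is not given in the sources used here, so reads in these overlaps are uncertain.

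The libraries held 20299052 to 27214385 reads on genes. Mbp, which encodes myelin basic protein, took 4.76% to 20.8% of them, and Pearson's r between replicates of an age was 0.986 to 0.995 across genes. The lowest of these r values belonged to P18, where Mbp took 15.1%, 20.8% and 9.47% of the reads in replicates 1, 2 and 3. All 7 myelin reference mRNAs (Cnp, Mag, Mbp, Mog, Mobp, Cldn11 and Mal) were above 0 in every library, and their summed normalized count was 2315509 to 5951971 in the P18 libraries, against 1185257 to 1762698 for P75, 1274498 to 2279014 for 6 months and 1387956 to 1999436 for 24 months. This sum was mostly Mbp, with a mean of 3800543 at P18 and 1265436 at P75. Mobp came next, with 185484 and 93503. Markers of other cells were also present, with summed counts of 213077 to 283283 for 14 neuronal and 111454 to 163162 for 10 astrocyte genes, and no marker was at 0 in every library. Fewer cells or less membrane of a type and less RNA in each cannot be told apart in such bulk samples.

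Sirt2 was the most abundant family member at each age and fell steeply after P18. Its normalized read count was 27874, 36774 and 27628 in the 3 libraries at P18. It was 4803, 5004 and 4658 at P75, then 3815, 4795 and 3767 at 6 months, and 3248, 3190 and 3158 at 24 months. The 3 libraries at P18 stood far above the other 9, which showed no value over 5004, and the 24 months libraries were below all others. The mean was 30758 ± 5211 (SD, n = 3) at P18 and 4822 ± 173.5 at P75, 4126 ± 580.1 at 6 months and 3199 ± 45.7 at 24 months.

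**Figure D1:**
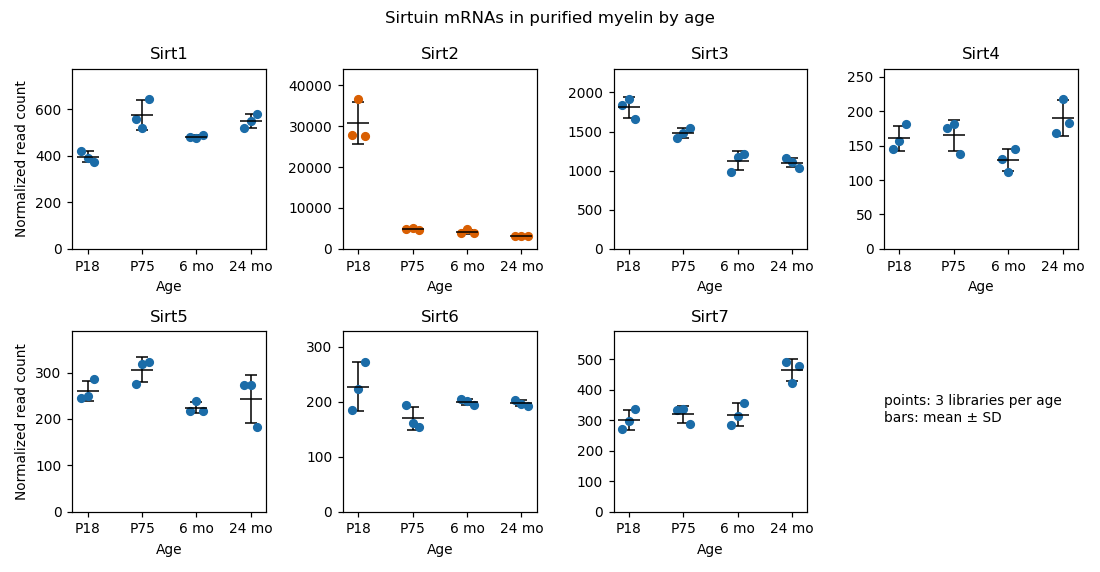
Normalized read count (y axis, linear from 0, a separate scale for each gene) of the 7 sirtuin mRNAs against age (x axis), with points for the 3 libraries of an age and bars for the mean ± SD. Sirt2 drops from a mean of 30758 at P18 to 4822 at P75, Sirt3 declines from 1810 to 1104, and Sirt7 is highest at 24 months.

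Age groups were compared with limma on log2(normalized read count + 1) in 1 fit of 14634 genes over the 12 libraries, and a gene was called changed at a Benjamini-Hochberg adjusted p under 0.1. Between P18 and P75, Sirt2 fell by 2.66 on the log2 scale (SE 0.12, 6.32-fold, adjusted p = 6.3e-10). Only 8 of the 14634 genes had a lower value in that comparison, in which Sirt2 ranked 9 from the lowest. Between P18 and 24 months it fell by 3.25 (9.53-fold, adjusted p = 1.3e-11). Nfkbib, whose exons overlap those of Sirt2, fell by 0.66 from P18 to P75 (adjusted p = 6.9e-04), and its later changes were -0.20 (adjusted p = 0.187) and -0.05 (adjusted p = 0.816). In the moderated F-test over the 4 ages, Sirt2 ranked 4 of all genes by p-value (adjusted p = 3.6e-11).

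The fall of Sirt2 went on at a lower rate in the adult. Between P75 and 6 months the log2 change was -0.23 (SE 0.12, adjusted p = 0.0999), which is at the edge of the threshold, and the replicates of these ages overlapped. That call was lost with edgeR on the recovered reads (adjusted p = 0.135) and in 8 of the 12 fits that left out 1 library, namely those without 1 of the P75 libraries, replicate 1 or 3 of 6 months, or 1 of the 24 months libraries. Over the 12 fits the log2 change ranged from -0.35 to -0.17. Between 6 and 24 months Sirt2 fell by 0.36 (SE 0.12, adjusted p = 0.0403), with no overlap between replicates. Without replicate 2 of 6 months the change was -0.25 (adjusted p = 0.183), and the call was also lost without replicate 2 of 24 months (adjusted p = 0.109). Between P75 and 24 months the log2 change was -0.59 (adjusted p = 6.5e-04).

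Myelin mRNAs of known function fell over the same interval, and Sirt2 fell further than each of the 7 listed here. From P18 to P75 the mean log2 level changed by -1.71 for Cnp, which encodes an enzyme of non-compact myelin, and by -1.50 for Mbp. It changed by -1.29 for the tight junction gene Cldn11, by -1.13 for Mal, by -1.11 for Mog and by -0.95 for Mobp. Mag, a receptor-like protein facing the axon, had the least change, with -0.64. All 7 were called lower at P75, where 22.9% of all genes tested were called lower. Mbp was the weakest of these calls (SE 0.60, adjusted p = 0.0548 in limma), and the Mobp replicates of P18 and P75 overlapped.

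**Figure D2:**
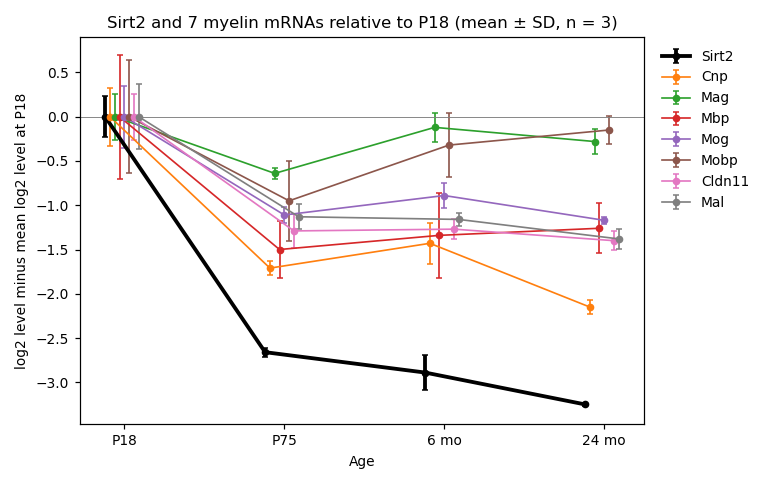
Mean log2 level of Sirt2 (thick black line) and 7 myelin mRNAs relative to their own mean at P18 (y axis) at the 4 ages (x axis), with bars for the SD over 3 libraries and small sideways offsets for legibility. Sirt2 is at -2.66 at P75 and -3.25 at 24 months, below each of the 7 other mRNAs, of which Cnp is the nearest at -1.71 and -2.15.

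Within a library, the log2 ratio of Sirt2 to Cnp was -0.23 ± 0.23 (SD, n = 3) at P18. It was -1.19 ± 0.06 at P75, then -1.70 ± 0.17 at 6 months and -1.34 ± 0.09 at 24 months. The ranges of the 4 ages did not overlap, and the ratio was lowest at 6 months, not at 24 months. The log2 ratio to Mag went from 2.03 ± 0.22 at P18 through 0.01 ± 0.07 at P75 and -0.74 ± 0.14 at 6 months to -0.94 ± 0.16 at 24 months. An exact permutation test over the 369600 assignments of libraries to ages, adjusted over 3 ratios tested, gave p = 1.9e-04 for Cnp and 2.9e-04 for Mag. The unadjusted p for Cnp, 6.5e-05, is the smallest that the test can give.

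Other genes of the oligodendrocyte lineage were also lower at P75 than at P18. The summed count of 5 genes of the oligodendrocyte nucleus and cell body (Olig1, Olig2, Sox10, Nkx6-2 and Gm98, an older symbol of Myrf) was 16897 to 17550 in the P18 libraries, 8216 to 8792 in those of P75, 6117 to 7381 at 6 months and 5281 to 6362 at 24 months. All 5 were called lower from P18 to P75, where 22.9% of all genes tested were called lower. The sum over 7 genes of precursors and of the stages that follow them was 3551 to 3671 at P18 and 1701 to 2446 at the later ages. From P18 to P75, 4 of the 7 were called lower (Gpr17, Neu4, Bmp4 and Enpp6), beside the same 22.9% of all genes. Gpr17, a receptor of committed precursors, was at -2.29 (SE 0.22, adjusted p = 1.7e-06), and its mean went from 1414 to 285.3. Pdgfra (-0.04), Cspg4 (-0.24) and Vcan (-0.14) were not called in that comparison. Olig1 made up most of the first sum at P18, with a mean of 10854, and had 2582 at 6 months, whereas Gm98 had 1380 at P18 and 1793 at 6 months. From P75 to 6 months 2 of the 5 were called higher (Gm98 at 0.76 and Sox10 at 0.34) and 3 lower. Of the 7, 3 were called higher (Enpp6, Gpr17 and Pdgfra) and 1 lower. Of all genes tested, 31.2% were called higher and 29.4% lower in that comparison. Thereafter, to 24 months, 2 of the 5 and 2 of the 7 were called lower and none higher, against 12.7% and 16.6% of all genes. None of these 12 markers was at 0 in a library. Their part in the fall of Sirt2 was not tested.

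With the fall of Sirt2, the composition of the family shifted. Sirt2 took 90.57% ± 1.15 (SD, n = 3) of the reads on sirtuin genes at P18, and this share was 61.51% ± 1.28 at P75, 62.31% ± 3.23 at 6 months and 53.79% ± 0.48 at 24 months (exact permutation p = 5.2e-04 over the 4 ages). To compare members with each other, counts were divided by the kilobases of merged exons. Per kilobase, Sirt2 made up 84.6% ± 1.6 of the family at P18, then 49.4% ± 1.4 at P75, 51.2% ± 3.4 at 6 months and 43.6% ± 0.98 at 24 months (exact permutation p = 3.2e-04). The level of Sirt2 per kilobase was 5.05 to 6.38 times the sum of the other 6 members in the libraries at P18, and 0.757 to 0.811 times that sum at 24 months. P75 and 6 months overlapped in these shares, and P18 and 24 months lay apart from both. The per kilobase shares and ratios depend on the length used. Sirt2 has 3568 merged exon bases, and its longest protein-coding transcript has 1843. For Sirt3 these lengths are 1570 and 1461. Whether Sirt2 lies above or below the sum of the others after P18 was not examined with transcript lengths.

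**Figure D3:**
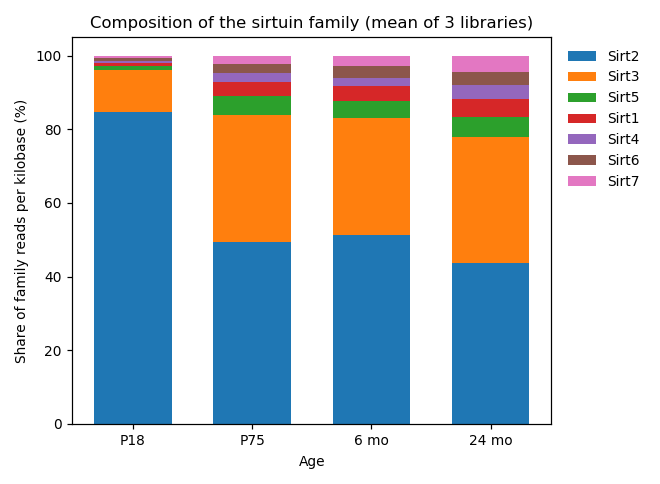
Share of each sirtuin in the family's reads per kilobase of merged exons (y axis, percent, mean of 3 libraries) at the 4 ages (x axis). Sirt2 makes up 84.6% at P18 and 43.6% at 24 months, while Sirt3 goes from 11.4% to 34.2%.

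On the per kilobase scale Sirt3 ranked next to Sirt2 at each age, with 1153 ± 83.9 normalized reads per kilobase at P18 and 703 ± 40.2 at 24 months, against 8621 ± 1460 and 896.5 ± 12.8 for Sirt2. The other 5 members were all between 53.9 and 141.3 as age means, with Sirt5 the highest of them at each age. At P18 the neighbours in the order Sirt6 (81.5 ± 16.0), Sirt1 (74.5 ± 4.37), Sirt4 (67.1 ± 7.60) and Sirt7 (58.7 ± 6.30) differed by less than the sum of their SDs. At 24 months the same was true of each neighbouring pair in the order Sirt5 (112.2 ± 23.9), Sirt1 (103 ± 5.58), Sirt7 (90.4 ± 7.15), Sirt4 (79.3 ± 10.7) and Sirt6 (71.0 ± 2.10). The order depends on the length used, since Sirt7 has 5148 merged exon bases from 11 annotated transcripts and its longest protein-coding transcript has 1727.

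Each sirtuin differed among the 4 ages in the moderated F-test of limma, 7 of 7, where 83.8% of all genes tested were called. The adjusted p was 6.9e-06 for Sirt3, 4.0e-04 for Sirt1, 4.4e-04 for Sirt7, 0.0204 for Sirt4, 0.0424 for Sirt5 and 0.0738 for Sirt6. The share of called genes in the whole table was thus large, and the number of members called is given beside it in each comparison that follows. The comparisons share libraries, since each age enters several of them.

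Between P18 and P75, 4 of the 7 sirtuins were called changed, 1 higher (Sirt1) and 3 lower (Sirt2, Sirt3 and Sirt6), against 48.8% of all genes called, 25.9% higher and 22.9% lower. Replicates did not overlap for 3 members (Sirt1, Sirt2 and Sirt3), against 47.7% of all genes. The median log2 change was 0.03 over the 7 members and 0.015 over all genes tested.

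**Figure D4:**
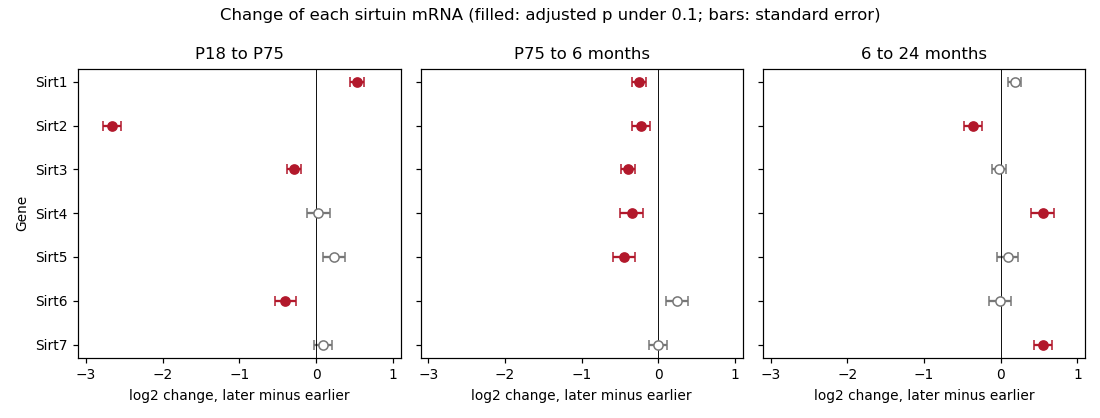
Log2 change of each sirtuin mRNA (x axis, later minus earlier age, in log2(normalized read count + 1)) in the 3 comparisons of consecutive ages, with the genes on the y axis, bars for the standard error, and filled symbols for an adjusted p under 0.1 in limma. Sirt2 at -2.66 between P18 and P75 is the only member beyond -1 or 1, and the called changes of the other members lie between -0.45 and 0.55.

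Sirt3, the main deacetylase of the mitochondrial matrix, also declined with age. Its normalized count was 1844, 1921 and 1664 at P18, 1415, 1478 and 1543 at P75, 985, 1180 and 1210 at 6 months, and 1162, 1113 and 1037 at 24 months. The ages P18, P75 and 6 months did not overlap with each other, whereas 6 and 24 months did. Sirt3 fell by 0.29 on the log2 scale from P18 to P75 (SE 0.09, adjusted p = 0.0194), by 0.40 from P75 to 6 months (adjusted p = 0.00179) and by 0.71 in all from P18 to 24 months (adjusted p = 5.1e-06). From 6 to 24 months its log2 change was -0.02 (adjusted p = 0.894). When all libraries were scaled to a common total, the change from P18 to P75 was -0.16 (adjusted p = 0.22), a scaling that moved the median of all genes in that comparison from 0.015 to 0.139. With a trend of each library with GC content and transcript length removed, that change was -0.23 (adjusted p = 0.0263). From P75 to 6 months it was then -0.16 (adjusted p = 0.088), and from 6 to 24 months -0.14 (adjusted p = 0.232). Of the genes that overlap Sirt3, Psmd13 fell by 0.49 from P18 to P75 (adjusted p = 6.5e-04) and rose by 0.58 from P75 to 6 months (adjusted p = 9.5e-05), an interval in which Sirt3 fell. Ric8 fell by 0.21 (adjusted p = 0.0421) and then had a change of 0.11 (adjusted p = 0.253).

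Sirt1, a nuclear deacetylase of transcription factors such as p53 and the FOXO proteins, was lowest at P18. Its normalized count was 422, 393 and 376 at P18, 560, 520 and 647 at P75, 481, 479 and 489 at 6 months, and 519, 549 and 579 at 24 months. P18 stayed below all other ages without overlap, and 24 months overlapped with P75. Sirt1 rose by 0.53 on the log2 scale from P18 to P75 (SE 0.09, adjusted p = 3.6e-04), fell by 0.25 to 6 months (adjusted p = 0.0383), and at 24 months was 0.47 above P18 (adjusted p = 4.3e-04). Without replicate 3 of P75, its highest library, the change from P75 to 6 months was -0.16 (adjusted p = 0.185).

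Sirt6, a deacetylase bound to chromatin, had counts of 184, 224 and 273 at P18, 193, 161 and 155 at P75, 205, 201 and 194 at 6 months, and 204, 197 and 193 at 24 months. P18 was the most variable age and overlapped with each of the others. The change from P18 to P75 was -0.40 (SE 0.14, adjusted p = 0.0247), and it was -0.26 (adjusted p = 0.114) without replicate 3 of P18 and -0.28 (adjusted p = 0.169) with the libraries scaled to a common total. From P75 to 6 months the replicates did not overlap, but the change of 0.24 missed the threshold (adjusted p = 0.148), and from 6 to 24 months the change was -0.01 (adjusted p = 0.957).

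Sirt7, the sirtuin of the nucleolus, kept a level of 272, 297 and 336 at P18, 334, 338 and 289 at P75, and 284, 315 and 358 at 6 months, and then stood at 493, 424 and 479 at 24 months. The first 3 ages overlapped, and the 24 months libraries lay above all 9 others. The rise from 6 to 24 months was 0.55 on the log2 scale (SE 0.12, adjusted p = 0.00568), and the change from P18 to P75 was 0.09 (adjusted p = 0.583) and from P75 to 6 months -0.01 (adjusted p = 0.957). Mafg, which overlaps Sirt7, had a log2 change of -0.25 from 6 to 24 months (adjusted p = 0.341).

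Sirt4, a mitochondrial sirtuin, had the lowest number of reads of the family, 122 in replicate 1 of P18. Its normalized count was 145, 157 and 181 at P18, 175, 181 and 138 at P75, 131, 112 and 145 at 6 months, and 168, 218 and 183 at 24 months. The 6 months and 24 months libraries did not overlap, and all other pairs of ages did. Sirt4 rose by 0.55 on the log2 scale from 6 to 24 months (SE 0.15, adjusted p = 0.0177), after a change of -0.35 from P75 to 6 months (adjusted p = 0.0589) in overlapping replicates. The latter call was lost without replicate 1 or 2 of P75 or of 6 months (adjusted p = 0.157, 0.188, 0.101 and 0.222 in turn). From P18 to 6 months the change of Sirt4 was -0.32 (adjusted p = 0.0719), a call lost without replicate 2 or 3 of P18 or replicate 1 or 2 of 6 months (adjusted p from 0.106 to 0.261).

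Sirt5, the mitochondrial enzyme that removes succinyl and malonyl groups, had counts of 246, 250 and 286 at P18, 276, 319 and 324 at P75, 218, 238 and 217 at 6 months, and 273, 272 and 183 at 24 months. The 6 months libraries were below those of P18 and P75, and replicate 3 of 24 months was the lowest of all 12. Sirt5 fell by 0.45 on the log2 scale from P75 to 6 months (SE 0.14, adjusted p = 0.014). When a trend of each library with GC content and transcript length was removed, that change was -0.08 and not called (adjusted p = 0.633). Its change from P18 to P75 was 0.23 (adjusted p = 0.204) and from 6 to 24 months 0.09 (adjusted p = 0.68).

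Between P75 and 6 months, 5 of the 7 sirtuins were called changed, all of them lower (Sirt1, Sirt2, Sirt3, Sirt4 and Sirt5), against 60.6% of all genes called, 31.2% higher and 29.4% lower. Replicates did not overlap for 4 members, against 63.1% of all genes, and the median log2 change was -0.25 over the members and 0.005 over all genes tested. In this comparison change went with transcript length in the whole table. The median log2 change was -0.32 in the 3539 genes with the shortest transcripts, up to 1980 bases, and 0.15 in the 3538 genes with the longest. The longest protein-coding transcripts of Sirt2, Sirt3, Sirt4, Sirt5, Sirt6 and Sirt7 had 1843, 1461, 1794, 1452, 1891 and 1727 bases and so fell among the shortest, whereas that of Sirt1 had 4430.

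When a smooth trend of each library with GC content and transcript length was removed, an alternative added after the data were seen, 3 of the 7 were called between P75 and 6 months. Of all genes, 8295 of the 14153 tested were called under that correction. Besides Sirt5, the calls of 2 others were lost, Sirt4 at -0.24 (adjusted p = 0.184) and Sirt2 at -0.16 (adjusted p = 0.209). Sirt3, at -0.16, was close to the threshold (adjusted p = 0.088), and Sirt1, at -0.32, kept its call (adjusted p = 0.00385). Sirt6, at 0.27, passed the threshold (adjusted p = 0.0919). With the replicate number as a block as well, Sirt1 was the remaining call of the 7, with an adjusted p of 0.0053 in limma, beside 8185 of the 14153 genes called. The same correction left the P18 to P75 change of Sirt2 at -2.57 (adjusted p = 7.6e-10), and the 6 to 24 months changes of Sirt7 at 0.48 (adjusted p = 0.004), of Sirt4 at 0.50 (adjusted p = 0.0267) and of Sirt2 at -0.41 (adjusted p = 0.0155). With the block added, the P18 to P75 change of Sirt6 was -0.29 and no longer called (adjusted p = 0.107). The correction also added a call of Sirt1 from 6 to 24 months (0.22), with an adjusted p of 0.0709 without the block and 0.0818 with it.

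Between 6 and 24 months, 3 of the 7 sirtuins were called changed, Sirt4 and Sirt7 higher and Sirt2 lower, against 29.3% of all genes called, 16.6% higher and 12.7% lower. Replicates did not overlap for 4 members (Sirt1, Sirt2, Sirt4 and Sirt7), against 43.5% of all genes. The median log2 change was 0.09 over the members and 0.028 over all genes. Markers of microglia were higher at 24 months as well. The summed count of 11 such genes was 5895 to 6963 in the P18 libraries, 8537 to 9690 in those of P75, 10267 to 11530 at 6 months and 15255 to 18536 at 24 months, none was at 0 in a library, and 6 of the 11 were called higher from 6 to 24 months, led by Tyrobp at 1.24 (SE 0.12, adjusted p = 3.6e-05) and Trem2 at 1.03 (adjusted p = 4.1e-05). Of 10 astrocyte markers, 2 were called higher in this comparison, Gfap by 0.65 (adjusted p = 0.0321) and Itga7 by 0.59 (adjusted p = 0.00191), and 8 were not called, with a median log2 change of -0.01 over the list. Their part in the rise of Sirt4 and Sirt7 was not tested.

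Across the longer spans, 4 of the 7 members were called between P18 and 6 months, Sirt1 higher and Sirt2, Sirt3 and Sirt4 lower, against 69.3% of all genes called, 35.1% higher and 34.1% lower. With the GC content and length trend removed, Sirt1 (0.14, adjusted p = 0.146) and Sirt4 (-0.14, adjusted p = 0.424) were not called in that comparison and Sirt7 was (0.28, adjusted p = 0.0163). Between P18 and 24 months 4 were called, Sirt1 and Sirt7 higher and Sirt2 and Sirt3 lower, against 69% of all genes, 34.7% higher and 34.3% lower, and Sirt4 was called as well under that correction (0.37, adjusted p = 0.038). Between P75 and 24 months 4 were called, Sirt7 higher and Sirt2, Sirt3 and Sirt5 lower, against 54.9% of all genes, 28.8% higher and 26.1% lower. Replicates did not overlap for 4 members in each of these 3 comparisons, against 67%, 66.6% and 57.5% of all genes. Sirt7 at 24 months was 0.63 above P18 (adjusted p = 1.9e-04) and 0.54 above P75 (adjusted p = 0.00137) on the log2 scale. Sirt5 was at -0.35 at 24 months relative to P75 (adjusted p = 0.0506), a change that became -0.16 (adjusted p = 0.301) without its low replicate 3 of 24 months and also lost its call without replicate 2 (-0.32) or replicate 3 (-0.31) of P75 and with the GC content and length trend removed (-0.16, adjusted p = 0.342).

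Sirtuins depend on NAD+, and the enzymes that make it included members called in each direction. Of 15 listed genes of NAD+ synthesis, 13 were in the table and 9 passed the minimum mean of 10. Nadk, which turns NAD+ into NADP+, was among the 9. It is counted with the genes that fell from P18 to P75 and from P75 to 6 months (-0.34 in both). Nampt, which makes the precursor of NAD+ in the salvage pathway, had a log2 change of 0.05 from P18 to P75 (adjusted p = 0.674). In that comparison 2 of the 9 rose and 3 fell, beside 48.8% of all genes called, and the Nmnat genes, which complete the synthesis of NAD+ in different compartments, diverged. Nmnat3, of mitochondria, rose by 1.07 (SE 0.17, adjusted p = 1.7e-04), while Nmnat1, of the nucleus, fell by 0.48 (adjusted p = 0.0413) and Nmnat2, of axons and Golgi, fell by 0.31 (adjusted p = 0.0025). From P75 to 6 months 2 rose and 3 fell (60.6% of all genes called), with the direction of all 3 Nmnat genes turned (Nmnat3 -0.51, Nmnat1 0.48 and Nmnat2 0.26). From 6 to 24 months 1 rose, Nadsyn1 by 0.62 (adjusted p = 0.0189), and 2 fell, Nmnat1 by 0.63 and Nmnat2 by 0.34 (29.3% of all genes called).

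Among 9 tested genes for other enzymes that use up NAD+ or its products, 5 fell and none rose from P18 to P75, where 22.9% of all genes were called lower and 25.9% higher, at a median log2 change of -0.35. These were Tnks (-0.81, adjusted p = 0.0015) and Tnks2 (-0.22), which add ADP-ribose chains, Sarm1 (-0.61, adjusted p = 5.8e-04), the NAD+ hydrolase of axon degeneration, Cd38 (-0.54, adjusted p = 0.00113) and Parp1 (-0.35, adjusted p = 0.00319), the DNA damage sensor. From P75 to 6 months 3 rose, led by Nudt12 at 1.58 and Tnks at 1.53, and 1 fell, where 31.2% of all genes were called higher and 29.4% lower. From 6 to 24 months, with 16.6% of all genes called higher and 12.7% lower, Parp3 rose by 0.43 while Tnks fell by 0.97 and Sarm1 by 0.36.

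The zinc-dependent histone deacetylases, which remove acetyl groups without NAD+, included members called in each direction. From P18 to P75, 2 of the 11 rose and 4 fell (48.8% of all genes called), with Hdac4 at -0.57 (adjusted p = 0.0639) and Hdac3 at -0.36 (adjusted p = 0.00311), and from P75 to 6 months 4 rose and 4 fell (60.6% of all genes called), with Hdac4 at 0.95 and Hdac2 at -0.68. From 6 to 24 months 2 rose and 3 fell (29.3% of all genes called). Hdac6, the other deacetylase of alpha-tubulin, had a log2 change of 0.04 from P18 to P75 (adjusted p = 0.698) where Sirt2 fell by 2.66.

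Atat1, the enzyme that adds the acetyl group to alpha-tubulin which Sirt2 and Hdac6 remove, fell together with Sirt2, by 1.12 from P18 to P75 (SE 0.12, adjusted p = 4.0e-06). Among 7 genes for alpha-tubulins and their acetylation, 3 fell and 2 rose in that comparison (48.8% of all genes called), with Tuba1a at -0.53 (adjusted p = 2.0e-04) and Tuba1b at 0.36 (adjusted p = 0.0128). From P75 to 6 months 2 rose and 2 fell (60.6% of all genes called), with Tuba1b at -0.78, and from 6 to 24 months Tuba4a fell by 0.53 and Tuba1a by 0.44 (29.3%). The alpha-tubulin genes have closely similar coding sequences, and the split of reads between them is uncertain.

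**Figure D5:**
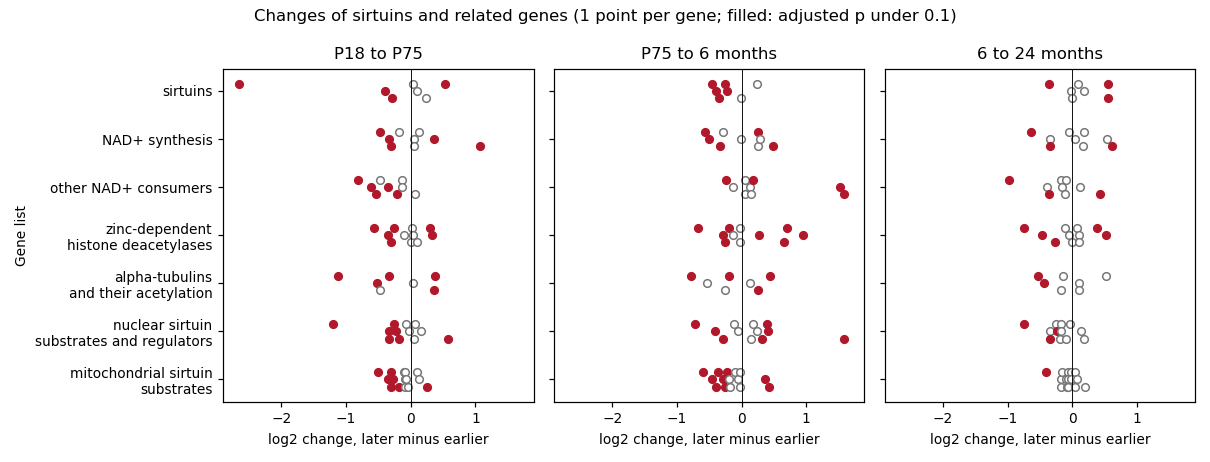
Log2 change (x axis, later minus earlier age) of each tested gene, 1 point per gene, for the sirtuins and 6 lists of related genes (y axis) in the 3 comparisons of consecutive ages, with filled symbols for an adjusted p under 0.1 in limma and small vertical offsets for legibility. Sirt2 at -2.66 between P18 and P75 lies outside the range of every list shown. Called members of most lists lie on both sides of 0 from P18 to P75 and from P75 to 6 months. From 6 to 24 months, those of the alpha-tubulin, nuclear substrate and mitochondrial substrate lists are all lower.

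Among 12 genes for nuclear substrates and regulators of sirtuins, 6 fell and 1 rose from P18 to P75, 4 rose and 3 fell from P75 to 6 months, and 3 fell from 6 to 24 months, where 48.8%, 60.6% and 29.3% of all genes were called in turn. Foxo3, a transcription factor deacetylated by Sirt1, moved most, with -1.21 (SE 0.25, adjusted p = 9.7e-04), 1.59 (adjusted p = 5.8e-05) and -0.75 (adjusted p = 0.0431) in the 3 comparisons in turn. Ep300, an acetyltransferase, rose by 0.58 from P18 to P75 (adjusted p = 3.3e-05). Rps19bp1, a small nucleolar activator of Sirt1, fell by 0.72 from P75 to 6 months (adjusted p = 2.0e-05). In that comparison the median over the 3539 genes with the shortest transcripts was -0.32. The part of transcript length in the change of Rps19bp1 was not tested.

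Most mRNAs of mitochondrial sirtuin substrates were lower at 24 months than at P18. Of 15 tested genes, 10 were called lower and none higher at 24 months against P18, where 34.3% of all genes tested were called lower, with a median of -0.44 against -0.010 over all genes. From P18 to P75, 6 fell and 1 rose (22.9% of all genes called lower), with Dlat, of the pyruvate dehydrogenase complex, at -0.36 (adjusted p = 0.00177) and Idh2, a matrix dehydrogenase activated by Sirt3, at -0.31 (adjusted p = 0.0462). From P75 to 6 months, 7 fell and 2 rose (29.4% called lower), with Acadl, of fatty acid oxidation, at -0.60 (adjusted p = 2.1e-05), Sod2, the superoxide dismutase of the matrix, at -0.39 (adjusted p = 4.8e-04), and Pdha1 at 0.42 (adjusted p = 1.5e-04). From 6 to 24 months 1 fell (12.7% called lower), Pdha1 by 0.40 (adjusted p = 0.00238). The summed count of the list was 53278 to 53810 in the P18 libraries, 46752 to 49511 in those of P75, 46049 to 49336 at 6 months and 43256 to 43623 at 24 months. Over the 3539 genes with the shortest transcripts of the whole table, the median change was -0.24 from P18 to 24 months. It was -0.32 from P75 to 6 months. The part of transcript length in the decline of the list was not tested.

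The genes whose pattern over the 12 libraries was most like that of Sirt2 were Fyn (Pearson's r = 0.992), a kinase of oligodendrocyte differentiation, Atxn7l3b (0.992), Cdc42 (0.991), a small GTPase of the actin cytoskeleton, Sh3bp5l (0.989) and Ykt6 (0.989), among 11304 genes with a mean of at least 100. Fyn had a mean normalized count of 5807 at P18 and 2907, 2701 and 2292 at the later ages. The points share 4 age groups and the difference between P18 and the rest carries most of the spread, and an r of at least 0.9 with Sirt2 was reached by 573 genes (5.07%). By rank correlation, only Fyn and Atxn7l3b of the 5 were among the 100 genes most like Sirt2.

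For Sirt3 the most similar genes were Nt5m (r = 0.992), a mitochondrial nucleotidase, Mpnd (0.986) and Dusp26 (0.986), and Nt5m had the same order of the 12 libraries as Sirt3. An r of at least 0.9 with Sirt3 was reached by 789 genes (6.98%). Fewer genes reached that r with the other members, 29 for Sirt1 (highest Kcns3, 0.959), 16 for Sirt7 (Rps6kb2, 0.939), 2 for Sirt5 (Fance, 0.926) and none for Sirt4 (Sbno2, 0.855) and Sirt6 (Pick1, 0.898). Low counts and small changes limit the r that a gene can reach. Sirt4 had as few as 122 reads in a library and Sirt6 as few as 140. The part of such limits in these numbers was not tested.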

How the data were processed

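RNA of purified mouse myelin was sequenced in 12 libraries. Per the labels and the study's methods, the authors aligned reads to mm9 with TopHat2 (2.0.8 per the labels), counted them on genes with HTSeq 0.5.4p1 and scaled each library with DESeq. What was deposited are normalized counts (signal), with columns for all 12 libraries, in which every value was a whole multiple of 1 read within 0.0051. Of the 21937 genes, 3103 were at 0 throughout.

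Genes were tested with limma 3.58.1 (R 4.3.3, trend, empirical Bayes) on log2(value + 1), which understates folds of low genes, for the 14634 genes whose mean reached 10, in 1 fit by age, at a false discovery rate of 0.1. Ratios and shares were tested by exact two-sided permutation of libraries, and 1 of the 3 ratios tested is not reported here. Lengths, loci and sequences came from GENCODE vM1 on NCBIM37 (the same assembly as mm9), and list genes were matched by symbol, with 3 listed genes unmatched. All 7 sirtuins were named, and from each list up to 4 called genes with the largest change, plus the most similar genes and the overlapping genes. Tnks2, Nampt, Hdac6 and members with no call were added for completeness. The members and lists were chosen with earlier results of these data known.

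Alternatives were edgeR 4.0.16 and DESeq2 1.42.0 on the recovered reads, other pseudocounts, filters and scalings, the replicate block, a false discovery rate of 0.05 and each library left out. A trend with GC content and transcript length was removed for the 14153 genes (96.7%) with both values. Deviations of libraries with the same number were correlated at 0.161, 0.101 and 0.187 between P75 and 6 months, and at -0.213 to 0.163 in the other comparisons. Only between P75 and 6 months was every correlation over 0.1. The labels tie the numbers to no shared litter, batch or day, and the main fit took no pairs. Library numbers in the column headers run consecutively within each age. Age and any difference in handling that follows those library numbers cannot be told apart. The replicate block was an alternative fit over all 12 libraries and all comparisons. Python 3.11.15 with pandas 2.3.3, numpy 2.4.6 and matplotlib 3.10.9 was used. The methods were tested on simulated data.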

Additional observations from a re-analysis of the deposited data

How the results depend on the processing

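Over 1050 combinations of a sirtuin, a comparison and an alternative, 956 kept the direction and the side of the threshold, 48 lost a call, 19 gained one and 27 changed sign. All changes of sign were in changes that had not been called. The shares of Sirt2 in the family and its ratios to Cnp and Mag kept their calls under every alternative run on them, and the replicate block changed no sirtuin call in the 6 comparisons of ages (Sirt2 from P75 to 6 months -0.23, adjusted p = 0.0666), though 6 in place of 7 members passed the F-test. With that block, 12087 of all 14634 genes passed it.

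The count of sirtuins called from P75 to 6 months was 3 at a false discovery rate of 0.05, at which all genes were not counted. It was 3 with the GC content and length trend removed, and 1 when the replicate block was added to that correction, beside 8295 and 8185 of 14153 genes. It was 3 to 6 with 1 library left out, and 3 without replicate 2 of P75, replicate 3 of P75 or replicate 1 of 6 months. In those 3 fits, 8097, 8007 and 7708 of the 14634 genes were called in turn. Without replicate 3 of P18, where 6 members were called, 9467 genes were. The log2 change of Sirt2 in that comparison was not called with a pseudocount of 0.5 (-0.23), without a filter (-0.23), with edgeR (-0.22), at a false discovery rate of 0.05 (-0.23) and with the GC content and length trend removed, with or without the block (-0.16 in both), and ranged from -0.35 to -0.17 with a library left out. From 6 to 24 months the range for Sirt2 was -0.42 to -0.25. The cause of the differences was not tested.

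Changes that had not been called and turned in sign were, with the GC content and length trend removed, Sirt7 from P75 to 6 months (0.08) and Sirt5 from 6 to 24 months (-0.08), from P18 to 6 months (0.08) and from P18 to 24 months (0.0040). With quantile normalization they were Sirt4 from P18 to P75 (-0.06) and Sirt7 from P18 to 6 months (-0.01), and with edgeR Sirt6 from 6 to 24 months (0.0005). With a library left out, the ranges that crossed 0 were -0.04 to 0.15 for Sirt4 from P18 to P75, -0.10 to 0.07 for Sirt7 from P75 to 6 months, and, between 6 and 24 months, -0.04 to 0.01 for Sirt6, -0.12 to 0.03 for Sirt3 and -0.0033 to 0.28 for Sirt5. They were also -0.01 to 0.16 for Sirt7 from P18 to 6 months, -0.22 to 0.07 for Sirt5 from P18 to 24 months and -0.13 to 0.02 for Sirt1 from P75 to 24 months. Groups of 3 libraries limit all tests.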
